A study of Danio rerio with 12 samples.

Results

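The 8 genes described here are sult2st1, lims2, ak1, slc25a14, aacs, elmo2, tppp3 and cdkn1ca, and they were chosen by their differences between 2 zebrafish lines, which appeared in uninjured hearts and again after injury. They are 8 of the 8793 genes that a single-gene probe set of the array represents, and they are measured by 10 of the 15502 probe sets tested. Expression was measured on 12 Affymetrix arrays hybridised with biotin-labelled RNA from whole hearts of adult, sexually mature zebrafish, 3 arrays in each of 4 groups. The wild-type (WT) fish were of the AB line. The other fish, called dnHIF1a below, carried transgenes named cmlc2a:Ert2-Cre-Ert2 together with cmlc2a:LnL:GFP, and also cmlc2a:LrL:dnHIF1a. These names give a dominant negative HIF1a, a subunit of the transcription factor that oxygen regulates, a GFP reporter and a hormone-dependent Cre recombinase, each under cmlc2a, the heart muscle promoter of myl7. Hearts of each line came from unamputated fish or from fish 7 days after amputation, the surgical removal of part of the ventricle. The sample titles call the transgenic fish dnHIF1a-expressing, but the labels used here do not say when or how Cre was activated. They also do not say whether the transgenic line shares the AB background, or whether an array holds 1 heart or a pool. A line difference therefore cannot be told apart from a difference in background, and p-values measure only the spread between these arrays.

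HIF transcription factors are held low when oxygen is plentiful and accumulate in hypoxia, when they raise genes of oxygen delivery and of metabolism without oxygen. A dominant negative HIF1a competes with the native subunit and lowers that response in the cells that make it. The zebrafish heart regrows its muscle after the ventricle tip is removed, by division of existing heart muscle cells within an injured tissue that also gains leukocytes, epicardial cells and fibroblasts. The 8 genes belong to different processes: sult2st1, slc25a14, aacs and ak1 act in metabolism, lims2 and elmo2 act in adhesion and Rac signalling, tppp3 acts on microtubules, and cdkn1ca restrains the cell cycle.

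Levels are given as the authors' RMA values on the log2 scale, on which 1 unit is a doubling of signal. The array medians lay between 5.55 and 5.59, and arrays of the same group correlated at 0.992 to 0.996 over all probe sets. The scale has no true zero and no measure of background, so a low value can be background alone. The heart muscle gene myl7 read 14.58 to 14.80 on every array. This is near the array maxima of 14.86 to 15.04, where values may be compressed, and other heart muscle markers differed between the lines (below). The mean of 15 measured macrophage and leukocyte markers was lower in dnHIF1a (6.89 to 7.06 against 7.84 to 7.99 in unamputated hearts, and 7.73 to 8.09 against 8.47 to 8.80 in amputated hearts). The mean of 14 erythrocyte markers ran from 7.94 to 8.45 in unamputated WT, 8.26 to 8.90 in unamputated dnHIF1a, 8.82 to 9.67 in amputated WT and 8.33 to 9.21 in amputated dnHIF1a. In whole hearts, fewer cells of a type and less RNA per cell cannot be told apart.

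Because the genes were chosen on the line differences, those differences are given as descriptions with their standard errors (SE) and carry no test. The rule for a call (adjusted p under 0.05 in limma) was met by 8 of 8 genes in unamputated hearts, where 11.4% of all probe sets met it, and by 7 of 8 in amputated hearts, where 12.9% did. Nothing is read from these shares, since the choice used them. The exception in amputated hearts was cdkn1ca, which was chosen as a gene differing despite injury but did not meet the rule there. In both states 7 genes read higher in dnHIF1a and ak1 alone of the 8 read lower. For each of the 8 genes, represented by its brightest probe set, no dnHIF1a array overlapped any WT array across the 12 arrays. The choice of genes favoured this as well, so nothing is read from it. Of the 15502 probe sets, 710 were called in both states in the same direction, and 703 of those had no overlap within either state. That is a looser measure than no overlap across the 12 arrays, for which the share over all probe sets was not counted. The gap between the lines over all arrays was 2.75 for sult2st1, 1.68 for lims2, 1.60 for aacs and 1.39 for both ak1 and slc25a14. It was 0.75 for elmo2, 0.28 for cdkn1ca and 0.25 for tppp3, the members closest to overlap. The median absolute line difference of the members was 2.79 in unamputated and 2.04 in amputated hearts, beside 0.11 and 0.12 over all probe sets.

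**Figure D1:**
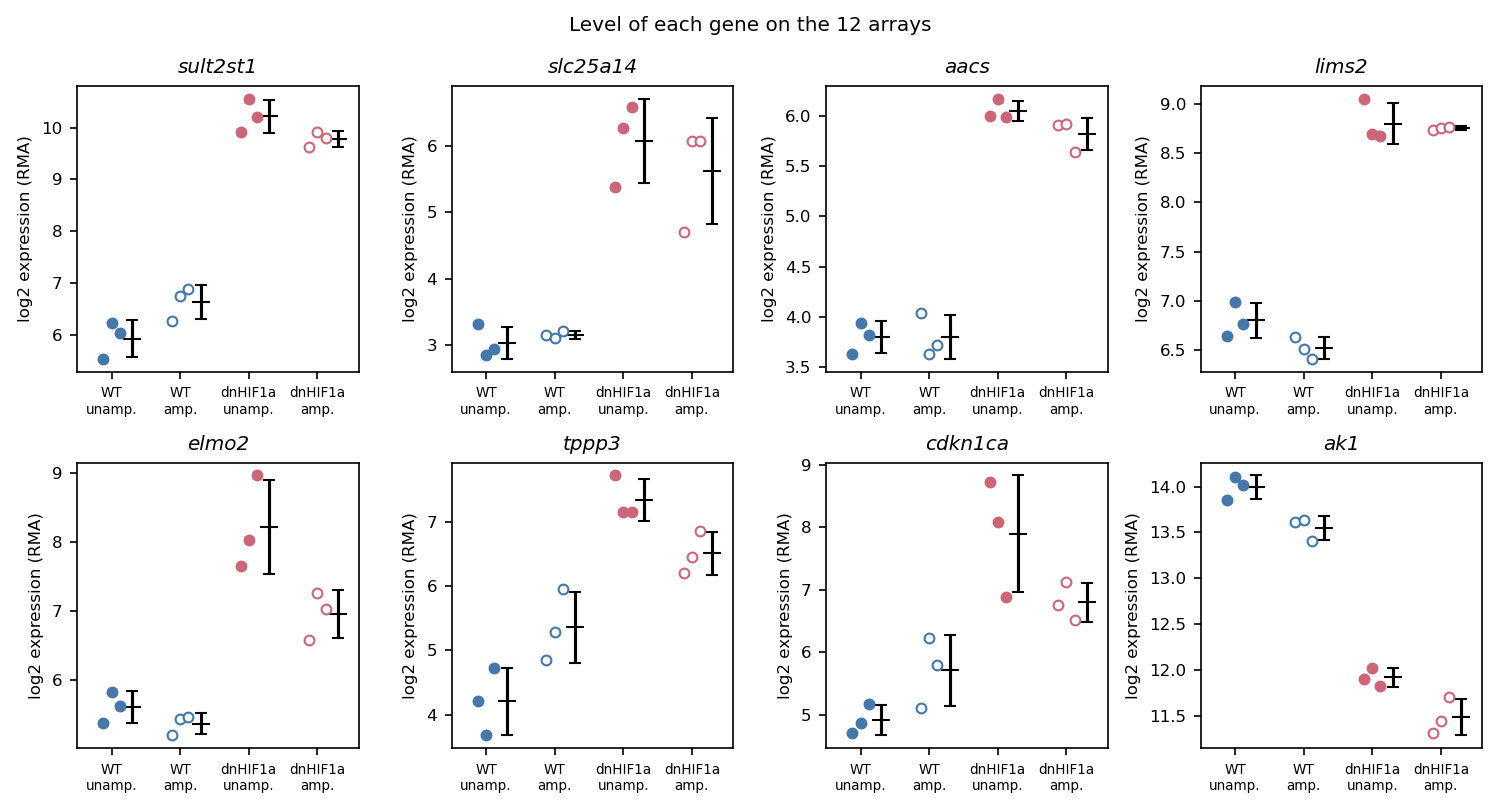
Log2 expression (vertical axes, each with its own range) of the 8 genes on the 12 arrays by group (horizontal axes), with 1 point per array, filled for unamputated and open for amputated hearts, and the mean with a bar of 1 SD beside each group. On the brightest probe set of each gene the lines do not overlap, which the choice of genes favoured. The gene ak1 reads 11.32 to 12.02 in dnHIF1a and 13.41 to 14.10 in WT. The gap narrows to 0.25 for tppp3 and 0.28 for cdkn1ca.

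Among the metabolic genes, sult2st1 encodes a cytosolic sulfotransferase of the family that transfers a sulfonate group to hydroxysteroids. In unamputated hearts the WT arrays read 5.54, 6.23 and 6.03 and the dnHIF1a arrays read 9.91, 10.55 and 10.21. In amputated hearts they read 6.26, 6.76 and 6.88 in WT and 9.63, 9.92 and 9.80 in dnHIF1a. The lowest dnHIF1a array lay well above the highest WT array in either state, while the amputated WT arrays sat at the top of the WT range. The line difference was 4.29 ± 0.20 (SE, the same in both states for each gene), or 19.6-fold, in unamputated hearts and 3.15, or 8.88-fold, in amputated hearts. The mean moved by 0.70 in WT and by -0.44 in dnHIF1a after amputation. Averaged over the lines, this amounted to 0.13 ± 0.14, which limma did not call (adjusted p = 0.542).

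The gene slc25a14 encodes a mitochondrial inner membrane carrier of the uncoupling protein group, and it has 3 probe sets. The brightest read 3.31, 2.85 and 2.94 in unamputated WT and 5.38, 6.27 and 6.59 in unamputated dnHIF1a. After amputation it read 3.15, 3.10 and 3.21 in WT and 4.70, 6.08 and 6.08 in dnHIF1a. The WT means sat at percentiles 2.31 and 3.30 of all probe sets on the array, so the WT hearts gave no more than a bottom-of-scale value and no fold is given. The dnHIF1a arrays were the spread-out ones, with an SD of 0.63 before and 0.80 after amputation, and array 1 was the lowest in both states. The line difference was 3.05 ± 0.35 in unamputated and 2.47 in amputated hearts. Another probe set, drawn from the same sequence cluster, gave 2.65 ± 0.23 and 2.67. The remaining probe set read 3.95 to 4.21 in unamputated WT, 4.08 to 4.41 in unamputated dnHIF1a, 3.76 to 4.12 in amputated WT and 4.06 to 4.35 in amputated dnHIF1a. In that probe set the lines overlapped in both states, and its differences were 0.13 ± 0.12 and 0.23. The probe sets of slc25a14 thus disagreed, and which of them tracks the transcript was not tested. The averaged amputation difference of the brightest probe set was -0.17 ± 0.24 and was not called by limma (adjusted p = 0.65).

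The gene aacs encodes acetoacetyl-CoA synthetase, the cytosolic enzyme that activates the ketone body acetoacetate for use in lipid synthesis. Unamputated WT hearts read 3.63, 3.94 and 3.82, and unamputated dnHIF1a hearts read 6.0, 6.17 and 5.99. Amputated WT hearts read 4.04, 3.63 and 3.72, and amputated dnHIF1a hearts read 5.91, 5.92 and 5.64. Both WT groups had a mean of 3.80, at percentiles 16.3 and 17.0 of the array, and the arrays of each group kept close together. The lines differed by 2.26 ± 0.12 in unamputated and 2.03 in amputated hearts. The averaged amputation difference was -0.12 ± 0.085, not called by limma (adjusted p = 0.348).

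The gene ak1 encodes cytosolic adenylate kinase, which interconverts ATP, ADP and AMP and is abundant in muscle. It was the brightest of the 8, with the WT unamputated mean at percentile 99.9 of the array. Unamputated hearts read 13.85, 14.10 and 14.02 in WT against 11.90, 12.02 and 11.83 in dnHIF1a. Amputated hearts read 13.61, 13.64 and 13.41 in WT against 11.32, 11.45 and 11.71 in dnHIF1a. Every dnHIF1a array lay below every WT array, and within each line every amputated array lay below every unamputated one. The line difference was -2.07 ± 0.11 in unamputated hearts and -2.06 in amputated hearts, 4.21-fold and 4.17-fold lower in dnHIF1a. These were the closest pair of line differences among the 8 genes. The WT readings lay toward the array maxima of 14.86 to 15.04, where values may be compressed. The folds and the closeness of the pair are therefore uncertain. After amputation ak1 fell by 0.44 in WT and by 0.42 in dnHIF1a. The averaged amputation difference of -0.43 ± 0.076, a 1.35-fold fall seen on 6 of 6 amputated arrays against the unamputated mean of their own line, was called by limma (adjusted p = 0.00138).

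Among the genes of adhesion and signalling, lims2 encodes PINCH2, a LIM-domain adaptor that joins integrin-linked kinase to the actin cytoskeleton at cell-matrix contacts. Unamputated hearts read 6.64, 6.99 and 6.76 in WT and 9.05, 8.69 and 8.67 in dnHIF1a. Amputated hearts read 6.63, 6.51 and 6.41 in WT and 8.74, 8.76 and 8.77 in dnHIF1a. The dnHIF1a arrays after amputation were nearly identical (SD 0.02), and no array of either line came near the other line. The line difference of lims2 was 2.01 ± 0.11 (4.02-fold) in unamputated hearts and 2.24 (4.72-fold) in amputated hearts, the single member whose difference was larger after amputation. Its averaged amputation difference of -0.16 ± 0.08 was not called by limma (adjusted p = 0.151). Even so, none of the 6 amputated arrays lay above the unamputated mean of their own line, as for the called genes ak1 and elmo2. How often this occurred over all probe sets was not counted.

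The gene elmo2 encodes an engulfment and motility protein, which binds DOCK family exchange factors to activate the GTPase Rac. Unamputated hearts read 5.38, 5.83 and 5.63 in WT and 7.65, 8.03 and 8.97 in dnHIF1a. Amputated hearts read 5.2, 5.44 and 5.47 in WT and 6.58, 7.27 and 7.03 in dnHIF1a. The unamputated dnHIF1a arrays were both the highest and the most spread (SD 0.68), and every amputated dnHIF1a array lay below them. The lines differed by 2.6 ± 0.27 (6.08-fold) in unamputated and 1.59 (3.01-fold) in amputated hearts. The mean changed by -0.24 in WT and by -1.26 in dnHIF1a after amputation. The average of these, -0.75 ± 0.19, a 1.68-fold fall seen on 6 of 6 amputated arrays, was called by limma (adjusted p = 0.0122). With the erythrocyte marker mean as a covariate elmo2 gave -0.77, close to -0.75, but lost the call (adjusted p = 0.121). That mean was itself higher after amputation in WT, so a lost call cannot be told apart from a loss of precision.

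The microtubule gene tppp3 encodes a member of the tubulin polymerization promoting proteins, which bundle and stabilise microtubules. Unamputated hearts read 4.22, 3.68 and 4.72 in WT and 7.72, 7.15 and 7.16 in dnHIF1a. Amputated hearts read 4.85, 5.29 and 5.95 in WT and 6.20, 6.46 and 6.86 in dnHIF1a. The lines drew together after amputation from both sides, and the highest amputated WT array came within 0.25 of the lowest amputated dnHIF1a array. The unamputated WT mean sat at percentile 24.4 of the array, so no fold is given for that state. For tppp3 the line difference was 3.14 ± 0.30 in unamputated and 1.14 (2.21-fold) in amputated hearts. The WT mean moved by 1.16 and the dnHIF1a mean by -0.84. Their average was 0.16 ± 0.21, not called by limma (adjusted p = 0.613).

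The cell cycle gene cdkn1ca encodes p57, an inhibitor of cyclin-dependent kinases that holds cells in G1. Unamputated hearts read 4.70, 4.87 and 5.17 in WT and 8.72, 8.08 and 6.89 in dnHIF1a. Amputated hearts read 5.11, 6.23 and 5.80 in WT and 6.76, 7.13 and 6.51 in dnHIF1a. The unamputated dnHIF1a arrays were the most spread of any group of the 8 genes (SD 0.93), and the amputated groups were separated by 0.28. For cdkn1ca the line difference was 2.98 ± 0.38 (7.91-fold) in unamputated and 1.09 (2.12-fold) in amputated hearts. With the erythrocyte marker mean as a covariate the value in amputated hearts was 0.58. The WT mean moved by 0.80, or by 1.75 with that covariate, and the dnHIF1a mean by -1.10, with an average of -0.15 ± 0.27 that limma did not call (adjusted p = 0.724).

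**Figure D2:**
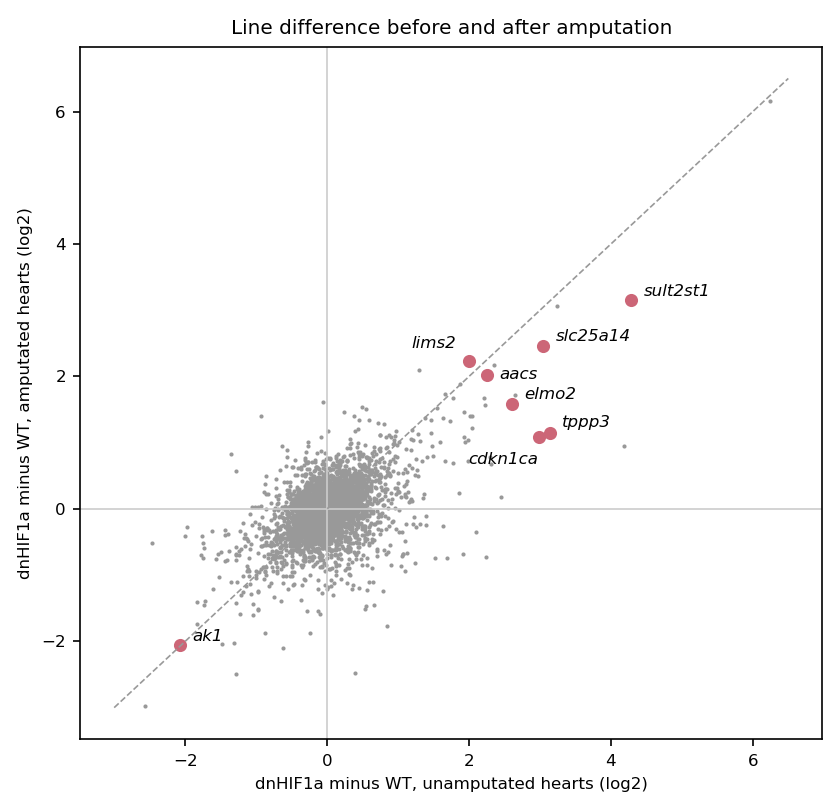
Line difference (dnHIF1a minus WT, log2) in unamputated hearts on the horizontal axis and in amputated hearts on the vertical axis, with the 8 genes named among all other genes as grey points and a dashed line of equal differences. Of the members, 7 of 8 have a smaller difference after amputation, most of all tppp3 (3.14 and 1.14) and cdkn1ca (2.98 and 1.09). Nothing is read from this count, since the genes were chosen on these differences and the share over all genes was not counted.

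The 2 line differences use different arrays, though they share 1 estimate of spread. Over all probe sets 750 were called in both, which was 710 with the same direction and 40 with opposite directions. The 710 made up 40.2% of the calls in unamputated and 35.5% of the calls in amputated hearts, with 361 higher and 349 lower in dnHIF1a. The 215 genes higher in both with no overlap between the lines within either state were ranked by the smaller of the differences. There sult2st1 stood at rank 2 behind mhc1ufa, a class I histocompatibility gene (6.24 and 6.16). After pygl, the glycogen phosphorylase of liver type (3.24 and 3.07), came slc25a14, whose probe sets disagreed (above), at rank 4. The G protein regulator rgs5a (2.35 and 2.17) preceded aacs at rank 6 and lims2 at rank 7, with elmo2 at rank 13 and tppp3 at rank 26. Among 220 genes lower in both, also without overlap within either state, ak1 stood at rank 1. The chemokine gene ccl27a, with larger differences (-2.57 and -2.98), is not among the 220 because its unamputated groups overlapped. Rank 2 was a gene with a clone-style symbol, which is not named. At ranks 3 to 6 stood hp, the haptoglobin gene (-1.49 and -2.03), cox7b, a subunit of cytochrome c oxidase (-1.74 and -1.44), ass1, which makes argininosuccinate (-1.84 and -1.40), and chst2b, a carbohydrate sulfotransferase (-1.73 and -1.39). These ranks were fixed in part by the choice of the members and place them, without a test.

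The averaged amputation difference is the contrast that the choice of genes did not use, and 26.2% of all probe sets were called in it, 12.6% higher and 13.6% lower after amputation. Of the 8 genes, 2 were called lower (ak1 and elmo2), none was called higher and 6 were not called. A count of 2 in 8 is near that background. The members' median was -0.16, beside -0.033 over all probe sets. The genes with the widest standard errors were cdkn1ca at 0.27 and slc25a14 at 0.24, so changes of that order would not have been seen in them.

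**Figure D3:**
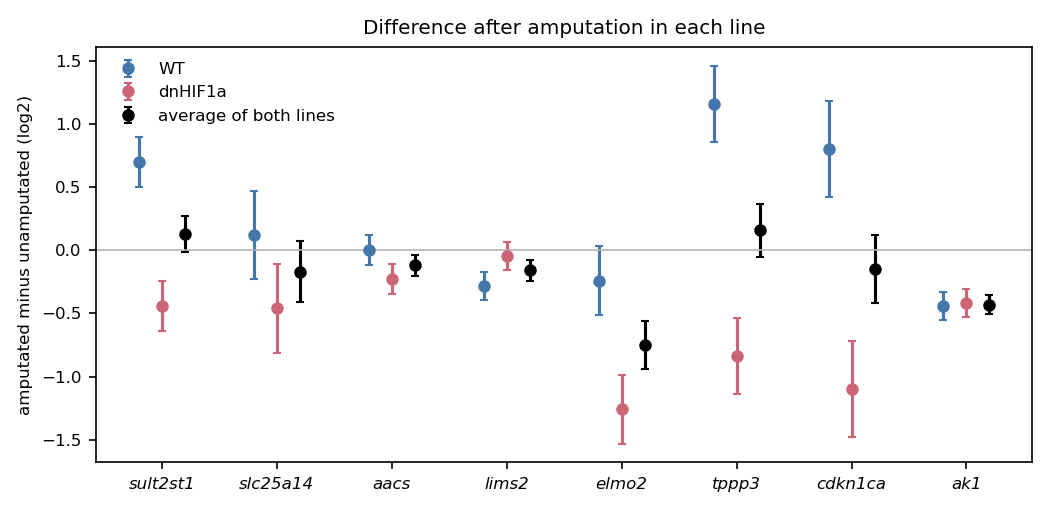
Amputation difference (amputated minus unamputated, log2) of the 8 genes in WT, in dnHIF1a and averaged over the lines, with bars of 1 SE. The averaged values of ak1 (-0.43) and elmo2 (-0.75) passed limma's threshold, and sult2st1, tppp3 and cdkn1ca have a positive value in WT and a negative value in dnHIF1a.

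In each line separately the amputation difference is tied to the line differences that chose the genes, so it is described without a test. It differed least between the lines for ak1, with 0.013 ± 0.15 (dnHIF1a minus WT). It was 0.23 ± 0.16 for lims2, -0.23 ± 0.17 for aacs and -0.58 ± 0.49 for slc25a14, none much beyond its SE. The difference was -1.01 ± 0.38 for elmo2, -1.14 ± 0.29 for sult2st1, -1.90 ± 0.54 for cdkn1ca and -1.99 ± 0.42 for tppp3. For sult2st1, tppp3 and cdkn1ca every amputated WT array lay above the unamputated WT mean. Every amputated dnHIF1a array of these genes lay below the unamputated dnHIF1a mean. How many probe sets did the same was not counted.

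How the 12 values of each gene divided among line, amputation, their interaction and the arrays within groups separated the members. The line held 97.9% of the sum of squares for aacs, 97.8% for lims2, 96.0% for sult2st1, 94.7% for ak1 and 90.0% for slc25a14. It held 77.8% for elmo2, 74.7% for tppp3 and 69.6% for cdkn1ca. Amputation held 9.95% for elmo2 and 4.10% for ak1, the members with a called amputation difference, and under 1% for the other six. The interaction held 16.2% for tppp3 and 15.1% for cdkn1ca. Arrays within groups held 15% for cdkn1ca, 8.64% for tppp3, 8.61% for slc25a14 and 7.75% for elmo2, and under 2% for the other four. Over all probe sets the median shares were 16.7% for amputation, 5.75% for interaction and 45.5% within groups. The shares of a gene divide a single total, and the choice of genes favoured a high line share. That choice lowered the members' other shares, so nothing is read from their distance to these medians.

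**Figure D4:**
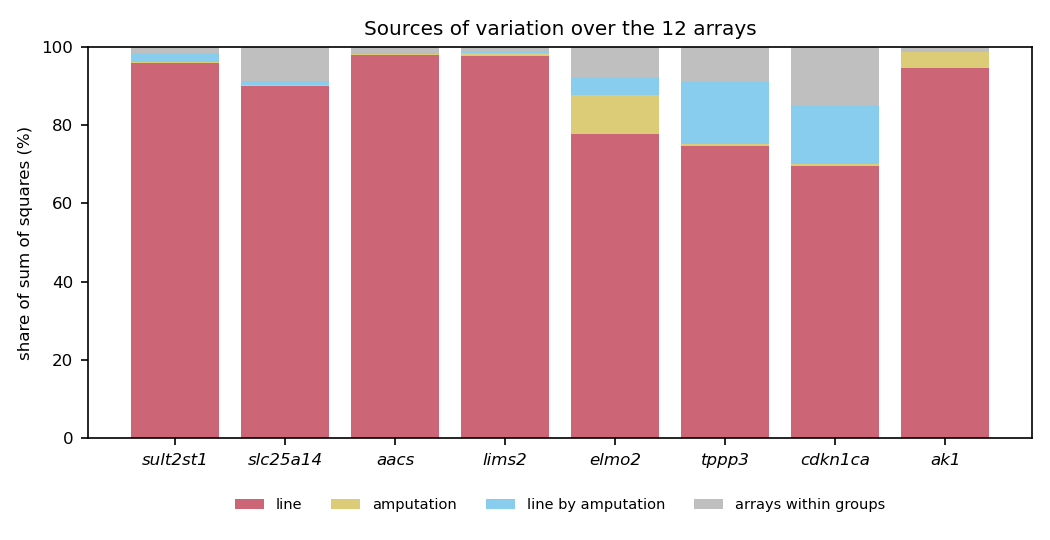
Share of the total sum of squares (percent, vertical axis) held by line, amputation, interaction and arrays within groups, stacked for each of the 8 genes. The line holds 69.6% for cdkn1ca to 97.9% for aacs, and the interaction is widest for tppp3 (16.2%) and cdkn1ca (15.1%). The choice of genes favoured a high line share.

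The genes whose pattern over the 12 arrays was most like each member were named by Pearson's r of log2 values among 8176 genes. These correlations share the line split of the arrays and are given as descriptions. For sult2st1 they were its family member sult2st2 (0.991), sh3bgr (0.985) and nfs1 (0.983). Whether the probe sets of sult2st1 and sult2st2 tell these paralogs apart was not tested. For lims2 they were pygl (0.991), riok1 (0.987) and mhc1ufa (0.985), and for aacs they were pygl (0.992), mhc1ufa (0.987) and lims2 itself (0.985). For slc25a14 they were mhc1ufa (0.962), sult2st2 (0.961) and chsy3 (0.959). The gene ak1 was most like chst2b (0.983) and the chaperone system genes hspa8b (0.975) and dnajc12 (0.975). For elmo2 they were slc52a3-1 (0.958), mdkb (0.958) and olig2 (0.955). The mean levels of slc52a3-1 (3.21) and olig2 (3.78) lay below the array lower quartiles of 4.19 to 4.28, where values can be background alone. The gene tppp3 was most like fzd2 (0.954), ptprb (0.951) and tmem179ba (0.947), and cdkn1ca was most like plppr1 (0.925), rgs4 (0.919) and tppp3 (0.919). Within groups, where the line split plays no part, the correlations between members ran from -0.60 (aacs with tppp3) to 0.69 (slc25a14 with elmo2).

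Other genes of each member's process were taken from lists of partners, which did not enter the choice of the 8. The lists were themselves drawn up with earlier results of these data known. The line differences of their genes were tested over all probe sets with limma. Over the 8793 genes 12.5% were called between the lines in unamputated hearts and 14.2% in amputated hearts, and 1154 rose and 1486 fell in the averaged amputation difference. The counts per list are small, and of 62 counts over the partner lists, marker lists and neighbours, 36 moved by over 1.5 times when some single array was left out. Of 13 measured sulfonation genes, 1 rose and 2 fell in unamputated dnHIF1a hearts (list median -0.033, against -0.020 over all genes) and 1 rose and 1 fell in amputated hearts (-0.010, against 0.013). The gene that was higher in both was sult2st2, by 2.22 ± 0.15 (adjusted p = 1.67e-06) and 1.57 ± 0.15 (adjusted p = 4.07e-05). Its probe set may not tell it apart from its paralog sult2st1, which was not tested. The phenol sulfotransferase gene sult1st1 was lower in amputated dnHIF1a hearts by limma, at -1.53 ± 0.22 (adjusted p = 0.000802). In unamputated hearts sult1st1 gave -0.97 ± 0.22 (adjusted p = 0.0125), a call lost without dnHIF1a array 1 of that state (adjusted p = 0.0581). The gene papss1, for the enzyme that makes the sulfonate donor, was lower in unamputated dnHIF1a hearts at -0.56 ± 0.091 (adjusted p = 0.0017) and fell after amputation by 0.28 ± 0.064 (adjusted p = 0.00676) in limma's test. Its group means of 3.78 to 4.47 lay near the array lower quartiles of 4.19 to 4.28 and can be largely background.

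Around lims2, 11 integrin-linked kinase complex genes were measured, of which 2 were higher and 1 lower in unamputated dnHIF1a hearts (median 0.053) and 3 were higher in amputated ones (median -0.050). The parvin gene parvaa, a direct partner in that complex, was higher by 0.83 ± 0.12 (adjusted p = 0.000571) and by 1.09 ± 0.12 (adjusted p = 8.79e-05). The paxillin gene pxna, a scaffold of focal contacts, was higher by 0.80 ± 0.13 (adjusted p = 0.00138) and 0.64 ± 0.13 (adjusted p = 0.00594). The paralog lims1, which encodes PINCH1, did not pass between the lines (0.18 and -0.087, adjusted p = 0.277 and 0.634) but rose after amputation by 0.48 ± 0.069 (adjusted p = 0.000304). The adaptor gene nck1b rose after amputation by 0.48 ± 0.064 (adjusted p = 0.000192), and 4 genes of the list rose in all.

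Around ak1, 19 phosphotransfer genes were measured, of which 5 were higher and 1 lower in unamputated dnHIF1a hearts (median 0.13) and 2 higher and 4 lower in amputated ones (median 0.043). The ADP/ATP carrier slc25a4 of the mitochondrial membrane was higher in unamputated dnHIF1a hearts by 1.93 ± 0.32 (adjusted p = 0.00181 by limma). The brain-type creatine kinase ckbb was lower in amputated dnHIF1a hearts, with -1.0 ± 0.22 (adjusted p = 0.0119). In unamputated hearts ckbb gave -1.0 ± 0.22 (adjusted p = 0.0118), a call lost without dnHIF1a array 2 of that state (adjusted p = 0.0521) and when only the groups compared were fitted (adjusted p = 0.0705). Its paralog ckba rose after amputation by 1.37 ± 0.13 (adjusted p = 1.03e-05). The AMP deaminase ampd2b rose after amputation by 0.93 ± 0.093 (adjusted p = 2.06e-05) and was lower in amputated dnHIF1a hearts, at -0.65 ± 0.13 (adjusted p = 0.0068).

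Around slc25a14, 11 mitochondrial carriers were measured, of which none was higher and 1 lower in unamputated dnHIF1a hearts (median -0.030), and 2 higher and 1 lower in amputated ones (median 0.073). The uncoupling protein gene ucp2 was lower in unamputated dnHIF1a hearts, at -0.97 ± 0.17 (adjusted p = 0.00269 by limma). This was opposite in direction to the brightest probe set of slc25a14, whose probe sets disagreed. Around aacs, 17 genes of ketone and acetoacetate use were measured, of which 2 were higher and 2 lower in unamputated dnHIF1a hearts (median 0.010), and 2 higher and 1 lower in amputated ones (median -0.050). The acyl-CoA synthetase acsl1a was higher by 0.64 ± 0.08 (adjusted p = 0.000257) and by 0.85 ± 0.08 (adjusted p = 3.85e-05). The sterol sensor insig1 was lower in unamputated dnHIF1a hearts, at -0.93 ± 0.17 (adjusted p = 0.00334). After amputation 5 genes of that list fell and 1 rose (median -0.10, against -0.045 over all genes). Among those that fell were the thiolase acat2, by 0.88 ± 0.12 (adjusted p = 0.000247), and the acetate-activating enzyme acss2, by 0.49 ± 0.071 (adjusted p = 0.000357).

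Around elmo2, 14 genes of engulfment and Rac signalling were measured, of which none was higher and 3 lower in unamputated dnHIF1a hearts (median -0.073), and 3 higher and 1 lower in amputated ones (median 0.060). The paralog elmo1 did not pass between the lines (-0.11 and -0.31, adjusted p = 0.629 and 0.0947) and rose after amputation by 0.48 ± 0.08 (adjusted p = 0.000831), opposite to elmo2. The engulfment adaptor gulp1a rose after amputation by 1.26 ± 0.11 (adjusted p = 4.9e-06). Around tppp3, 25 genes of tubulin and its regulators were measured, of which 2 were higher in unamputated dnHIF1a hearts (median 0.047) and 3 in amputated ones (median 0.010), with none lower. The alpha tubulins tuba2 and tuba8l2 were higher in amputated dnHIF1a hearts by 0.46 ± 0.07 (adjusted p = 0.00125) and 0.50 ± 0.087 (adjusted p = 0.00286). The tuba2 means there were low, 3.85 in WT and 4.31 in dnHIF1a, near the array lower quartiles of 4.19 to 4.28, and can be largely background. Around cdkn1ca, 19 genes of G1 control were measured, of which 1 was higher and 1 lower in unamputated dnHIF1a hearts (median -0.067), and 2 lower in amputated ones (median -0.16). The transcription factor e2f4 fell after amputation by 0.38 ± 0.049 (adjusted p = 0.00016).

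Markers of other cell types were set beside the members, and their part in the members' line differences was not tested. Of 15 macrophage and leukocyte markers, 11 were lower in unamputated dnHIF1a hearts (median -0.89), 10 in amputated ones (median -0.58), and 14 rose after amputation. The count of 10 was 5 without dnHIF1a amputated array 2 and 5 without WT amputated array 3. The pan-leukocyte gene ptprc was among them, at -1.24 in unamputated hearts (adjusted p = 1.65e-05 by limma). Of 4 smooth muscle markers, 3 were higher and 1 lower in unamputated dnHIF1a hearts (median 1.16) and 1 higher in amputated ones (median 0.59). Their mean level ran from 9.02 to 9.37 in unamputated WT, 9.86 to 10.28 in unamputated dnHIF1a, 9.77 to 10.22 in amputated WT and 10.54 to 10.63 in amputated dnHIF1a. Of 10 epicardium and fibroblast markers, 4 were higher in unamputated dnHIF1a hearts and 3 lower in amputated ones. The count of 3 was 0 without dnHIF1a amputated array 1, WT amputated array 1 or WT amputated array 3, 1 without dnHIF1a amputated array 2 and 5 without WT unamputated array 3. Of 12 liver markers, none was called in amputated hearts and 3 were higher in unamputated dnHIF1a hearts, namely rbp4 (1.14, adjusted p = 1.97e-05 by limma), tfa (1.31, adjusted p = 0.000295) and fabp10a (0.52, adjusted p = 0.0285). Over all arrays rbp4 read 10.99 to 12.49, tfa 7.19 to 11.37 and fabp10a 4.62 to 5.55. None of 9 skeletal muscle markers, set beside ak1, was called between the lines, and 3 rose after amputation. Without 1 array the count called after amputation ran from 0 to 4, and that between the lines in amputated hearts from 0 to 3. Levels of these markers differed widely, with mylpfa at 4.81 to 6.97, pvalb2 at 5.27 to 9.41 and ckma at 13.57 to 13.82. The list mean was 5.54 to 5.58 in unamputated WT and 5.54 to 5.63 in unamputated dnHIF1a. After amputation it was 5.98 to 6.63 in WT and 5.59 to 7.14 in dnHIF1a. Of 11 heart muscle markers, 2 were higher and 1 lower in unamputated and 3 were higher in amputated dnHIF1a hearts. By limma myh7 was higher by 2.04 (adjusted p = 0.000747) in unamputated and 1.4 (adjusted p = 0.00846) in amputated hearts. The gene atp2a2a was higher by 0.41 (adjusted p = 0.00653) and 0.53 (adjusted p = 0.00148). In unamputated hearts ttn.2 was lower (-0.27, adjusted p = 0.048), and in amputated hearts tnnt2a was higher (0.23, adjusted p = 0.0366). The scale has no zero, so no marker can be given as absent.

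In the order of genes of the GRCz12tu RefSeq annotation the 8 members lay on 6 chromosomes, and none stood among the 5 nearest measured genes on either side of another. Of 72 such neighbours 10 were called between the lines in unamputated hearts (13.9%, beside 12.5% of all genes) and 12 in amputated hearts (16.7%, beside 14.2%), with 5 called in both in the same direction. The nearest called neighbour of sult2st1 was the paralog sult2st2, at 2.22 and 1.57, and whether the probe sets tell the paralogs apart was not tested. Around slc25a14, 3 of 10 neighbours were called in unamputated and 5 of 10 in amputated hearts. Among them cox7b was lower in both states, by limma at -1.74 (adjusted p = 3.92e-08) and -1.44 (adjusted p = 3.04e-07), and its calls held under every alternative run. In unamputated hearts the other calls were pgk1 and ddx52, both lost without dnHIF1a unamputated array 2 (adjusted p = 0.0727 and 0.0571). That of pgk1 was also lost without dnHIF1a unamputated array 1 or 3 or WT unamputated array 2. The call of pgk1 in amputated hearts, at 0.43 (adjusted p = 0.00475 by limma), held under every alternative run. In amputated hearts the calls of pgrmc1, taf9 and ddx52 were lost with the erythrocyte covariate (adjusted p = 0.0602, 0.0735 and 0.0849), and that of ddx52 also without dnHIF1a amputated array 2 or WT amputated array 1. Of 7 neighbours of elmo2, the metal transporter slc11a2 was higher in both states, by 0.74 (adjusted p = 0.000226) and 0.53 (adjusted p = 0.00274). No neighbour of lims2 (5 measured) or ak1 (10 measured) was called in either state.

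**Figure D5:**
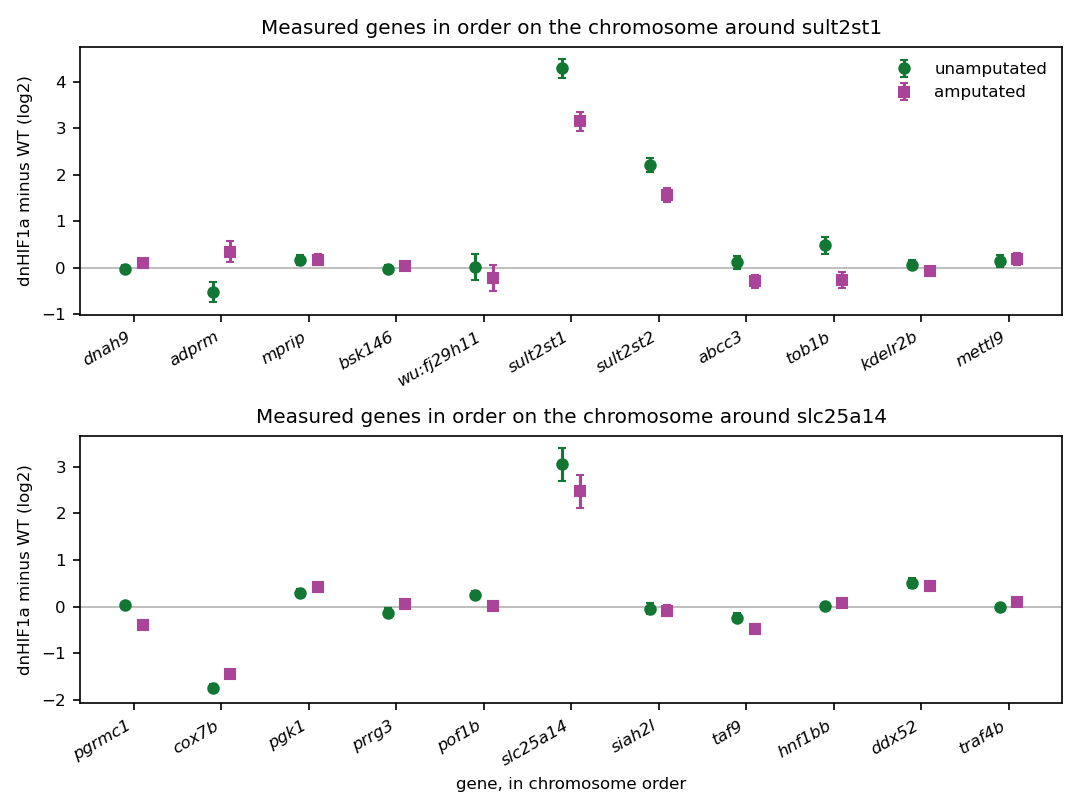
Line difference (dnHIF1a minus WT, log2, vertical axes) of sult2st1 (upper panel) and slc25a14 (lower panel) and of their nearest measured genes in chromosome order (horizontal axes), in unamputated and amputated hearts, with bars of 1 SE. Beside sult2st1 (4.29 and 3.15) stands sult2st2 (2.22 and 1.57), and near slc25a14 (3.05 and 2.47) cox7b lies below zero (-1.74 and -1.44).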

How the data were processed

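RNA extracted from hearts with Trizol was labelled for hybridisation on 12 arrays, grouped 3 by 3 by the labels' line and injury state. Each deposited value is the log2 level of a probe set, made by the authors with RMA per the submitters' processing notes, which list limma as well and give no versions. RMA subtracts background and makes the distributions of all arrays alike, so values at the bottom of the scale are the least certain and the brightest may be compressed.

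The files hold 15617 probe sets, and 15502 were tested after removal of 115 controls. Of these 10795 have a single gene, 135 several and 4572 none in the platform table, whose symbols were updated through Entrez identifiers (1 changed, 84 unmatched). The probe set with the highest mean stands for its gene. The limma 3.58.1 model (R 4.3.3) had 4 group means and used all 12 arrays (8 residual and 4.46 prior degrees of freedom). Two-sided p-values received Benjamini-Hochberg adjustment across every tested probe set, and a call is an adjusted p under 0.05. The members and lists were chosen with earlier results of these data known. The neighbour comparison was added after the values were seen.

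Partner genes were eligible for naming as the 2 per direction, list and comparison with the smallest p. Of these the text gives mainly the ones whose call held under every alternative run that kept the gene, and it counts the others. This choice was made after the values were seen. It also names the 3 genes most like each member and the 5 leading genes per direction of the overlap, passing over clone-style symbols such as those that open with si: or zgc:, which still count in the ranks. Markers and neighbours were picked for naming after their values were seen. The labels give no pairing by replicate number, and the main model used none. Deviations of arrays with the same number correlated at -0.191 to 0.133. Arrays with different numbers were not compared, so these values cannot show whether a batch was shared. No 2 arrays shared more than 2.87% identical values. In simulated data of 15502 probe sets, of which 200 changed, 1.5-fold changes were recovered at 91% in the averaged amputation difference, 80.6% in unamputated and 82.1% in amputated line differences. False calls numbered 7, 9 and 10 in the same order. The simulated spread was independent between probe sets, and fewer probe sets changed than were called here. These rates therefore need not hold for these data. The number of arrays limits the precision. The alternatives repeated the quantile normalization, centred arrays on their medians, left out the dimmest or the flattest probe sets, used a trended prior, array weights, an erythrocyte covariate, the replicate number as a block or only the groups compared, took the mean of a gene's probe sets, or left out each array in turn.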

Additional observations from a re-analysis of the deposited data

Results flagged for a closer look

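In 3 of the 8 genes every amputated WT array lay above the unamputated WT mean. Every amputated dnHIF1a array of these genes lay below its own line's unamputated mean. This opposition was not tested because the genes were chosen on the line differences. Its share over all probe sets was not counted, so nothing is read from the count. The responses differed, dnHIF1a minus WT, by -1.14 ± 0.29 for sult2st1, by -1.99 ± 0.42 for tppp3 and by -1.90 ± 0.54 for cdkn1ca.

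Among the partner genes eligible for naming, the only ones looked up, 3 had amputation responses that differed between the lines in limma's interaction test. The interaction is the difference between the line differences, and each of the 3 was picked at least partly through a line difference. The calls are therefore not free of that choice, and the share of all probe sets called in the interaction was not counted. The AMP deaminase ampd2b rose by 1.44 in WT and gave 0.42 in dnHIF1a, a difference of -1.02 ± 0.19 (adjusted p = 0.0177). The engulfment adaptor gulp1a gave 1.80 in WT and 0.72 in dnHIF1a, a difference of -1.08 ± 0.21 (adjusted p = 0.0235). The cell cycle inhibitor cdkn1bb, which encodes a p27 protein, gave 0.65 in WT and -0.29 in dnHIF1a, a difference of -0.94 ± 0.20 (adjusted p = 0.0286). Each of the 3 calls was lost with the erythrocyte marker mean as a covariate, where the difference was -1.05 for ampd2b (adjusted p = 0.109), -0.74 for gulp1a (adjusted p = 0.204) and -0.80 for cdkn1bb (adjusted p = 0.207). That covariate itself differed with injury in WT, which limits what a lost call shows. The call of ampd2b held without any single array. Those of gulp1a and cdkn1bb were lost without dnHIF1a unamputated array 2, dnHIF1a amputated arrays 1 and 2 or WT amputated arrays 1 and 3, with adjusted p-values of 0.0535 to 0.0644 for gulp1a and 0.0615 to 0.0836 for cdkn1bb. The call of cdkn1bb was also lost without dnHIF1a unamputated array 1 (adjusted p = 0.069).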

How the results depend on the processing

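No line difference and no called amputation difference of the 8 genes changed direction under any alternative that was run. For the line differences this was largely fixed by the choice of the genes, so it gives them no added support. The call of elmo2 in the averaged amputation difference was lost with the erythrocyte marker mean as a covariate (-0.77, adjusted p = 0.121), where that of ak1 held. The covariate itself differed with injury in WT, at 7.94 to 8.45 in unamputated and 8.82 to 9.67 in amputated hearts. A call lost with it therefore cannot be told apart from a loss of precision. With the mean of all its probe sets, slc25a14 gave line differences of 1.94 and 1.79 in place of 3.05 and 2.47. For cdkn1ca the responses differed by -2.71 with the covariate in place of -1.90. With the covariate the counts of calls were 1598 in the averaged amputation difference (4069 without it), 1013 in amputated line differences (2000) and 425 shared line calls (710). Genes called in any comparison then numbered 8 of the phosphotransfer list, 2 of the carriers, 6 of the ketone list, 6 of the engulfment list, 5 of the tubulin list and 1 of the G1 list, and the cause was not tested. Leaving out each array in turn gave 1138 to 2317 amputated line calls, falling to 1138 without dnHIF1a amputated array 2, 1236 without array 1 of that group and 1279 without WT amputated array 1. It gave 3397 to 4300 averaged amputation calls, 1182 to 1754 unamputated line calls and 521 to 758 shared calls. The lists then held 3 to 6 called sulfonation genes, 5 to 6 of the integrin-linked kinase complex, 11 to 15 phosphotransfer genes, 2 to 7 carriers, 6 to 11 ketone genes, 6 to 10 engulfment genes, 5 to 11 tubulin genes and 4 to 6 G1 genes. The leukocyte markers called between the lines in amputated hearts numbered 5 to 11 without 1 array and 4 with the covariate, in place of 10. With the replicate number as a block, which the labels do not give as a pairing, there were 3907 averaged amputation calls, 1666 unamputated and 1789 amputated line calls, and 656 shared ones. The promoter motif comparison was not run because no promoter sequences were used here.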
